A study of Homo sapiens with 12 samples.

Results

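The interaction of cariporide with the glucose level is the amount by which the RNA change that cariporide brings at 5 mM glucose differs from the change it brings at 10 mM glucose. It was computed for each gene on the log2 scale as (LGCAR minus LG) minus (CAR minus NG), over all 12 libraries of the series. Of the 40929 gene symbols in the count tables, the 15104 (36.9%) that passed a filter on low counts were tested, and all were members whatever their value. The cells were MDA-MB-231, an established human line of triple-negative breast cancer that the labels call epithelial and wild type in genotype, grown in RPMI with 10% fetal bovine serum. In all 4 groups of 3 libraries RNA was taken after 48 h of treatment. LGCAR had 5 mM glucose with 25 µM cariporide, LG had 5 mM glucose with none, CAR had 10 mM glucose with 25 µM cariporide, and NG had 10 mM glucose with none. A positive interaction means that the log2 change with cariporide was higher at 5 mM than at 10 mM glucose.

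Cariporide inhibits sodium-proton exchange at the cell membrane, by which cells that make much lactic acid send protons out and keep their internal pH. Glucose supply is read by the transcription factors MondoA and ChREBP, which with their partner MLX respond to glucose phosphates and bind carbohydrate response elements. TXNIP, an arrestin-like protein that binds thioredoxin and lowers glucose uptake, is their best known target.

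Totals ran from 18069004 to 24837409 counts a library, with a common biological coefficient of variation of 6.94%. Whether the 3 libraries of a group are separate cultures is not stated in the labels, so the p-values measure the spread between these libraries, which may be technical. VIM, the intermediate filament of mesenchymal cells, was at 1609 to 1863 CPM (counts scaled to the library size with TMM factors), and the simple epithelial keratin KRT8 was at 426 to 506 CPM. The epithelial adhesion molecules were low, EPCAM at 8.73 to 13.8 CPM and CDH1 at 0.953 to 2.47 CPM. Of 11 markers of leukocytes, endothelium, fibroblasts and adipocytes, only CD3E, which marks T cells, was at 0 in every library. The fibroblast markers PDGFRB and COL1A1 were the highest, at 9.37 to 13.1 CPM and 6.54 to 9.48 CPM. The endothelial marker PECAM1 was at 1.41 to 2.46 CPM, and the highest value of any other was 0.387 CPM, in LYZ. The sum of the 11 ran from 22.6 to 23.0 CPM in LGCAR, 18.5 to 22.5 CPM in LG, 21.3 to 21.7 CPM in CAR and 19.8 to 21.7 CPM in NG. Cytosolic ribosomal RNA genes held 10.2% ± 1.12 of the counts in LGCAR, 8.65% ± 0.649 in LG, 7.87% ± 0.723 in CAR and 9.48% ± 1.67 in NG (SD, n = 3 each). This share was thus highest in LGCAR and lowest in CAR, and it moved in the direction of a positive interaction. Within groups, LGCAR 3, LG 3 and CAR 1 each differed more from the other libraries of their group than those did from each other, and NG 1 and NG 3 were the most unlike pair of all.

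TXNIP was called, and it was the 1 gene of 15104 (0.00662%) called in the interaction by edgeR's quasi-likelihood test at an adjusted p under 0.05. Cariporide was accompanied by a higher TXNIP level at 5 mM glucose and by no called change at 10 mM. No gene was called with a negative interaction (0%) by edgeR, and limma-voom called TXNIP alone as well. At an unadjusted p under 0.05 there were 473 genes (3.13%), 233 with positive (1.54%) and 240 with negative values (1.59%). DESeq2 called 5 genes, 2 positive (TXNIP and RNR1) and 3 negative (EGR1, TMEFF1 and H2AC19). The median interaction of all tested genes was 0.00194 on the log2 scale, and 50.7% of the values were above 0.

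TXNIP stood at 84.3, 79.9 and 94.6 CPM in LGCAR, against 40.6, 49.98 and 48.6 CPM in LG. The 3 LGCAR libraries were all above the 3 LG libraries, as LGCAR and LG were apart in either direction for 3223 genes (21.3%). At the higher glucose level the values were 263, 249 and 245 CPM in CAR, against 255, 259 and 278 CPM in NG, and these groups overlapped (CAR and NG were apart for 1376 genes, 9.11%). TXNIP rose 1.86-fold with cariporide at 5 mM (log2 change 0.90, SE 0.0766, edgeR adjusted p = 4.6e-05). At 10 mM its level in CAR was 0.957 of that in NG (log2 change -0.06, SE 0.0713, edgeR adjusted p = 0.895). The interaction was 0.96 (SE 0.105, 95% interval 0.74 to 1.18, edgeR adjusted p = 0.00138), a ratio of the 2 fold changes of 1.94 with an interval of 1.67 to 2.27. On the linear scale, the difference between LGCAR and LG was 39.9 CPM and that between CAR and NG was -11.4 CPM.

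Read the other way, the same interaction is a difference in the response to lower glucose. With cariporide, TXNIP fell to 34.1% of the CAR level in LGCAR (log2 change -1.55, edgeR adjusted p = 7.8e-09). Without cariporide it fell to 17.6% of the NG level in LG (log2 change -2.51, edgeR adjusted p = 7.91e-12). Every library at 5 mM glucose, with or without cariporide, was below every library at 10 mM.

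The TXNIP call held in each of the 12 fits that left out 1 library, with values from 0.86 to 1.01 and edgeR adjusted p from 0.000943 to 0.0104. It ended when the ribosomal RNA share was a covariate (1.002, edgeR adjusted p = 0.0595) and when LG 3 and CAR 1 were left out together (1.02, edgeR adjusted p = 0.156).

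TXNIP lies on the minus strand of chromosome 1 (GRCh38.p14, 145992435 to 145996579), and no other gene of GENCODE 29 shares its exons. Its promoter is shown because it carries the kind of element through which glucose acts on this gene. The window runs from 250 bases before to 50 bases after the start of transcription (RefSeq, GRCh38.p14, chr1:145996530-145996829, minus strand, 5′ to 3′), and the capitals mark the match to a carbohydrate response element, spelled CACGNG and CNCGNG with 5 bases of any kind between them and searched on both strands.
TXNIP: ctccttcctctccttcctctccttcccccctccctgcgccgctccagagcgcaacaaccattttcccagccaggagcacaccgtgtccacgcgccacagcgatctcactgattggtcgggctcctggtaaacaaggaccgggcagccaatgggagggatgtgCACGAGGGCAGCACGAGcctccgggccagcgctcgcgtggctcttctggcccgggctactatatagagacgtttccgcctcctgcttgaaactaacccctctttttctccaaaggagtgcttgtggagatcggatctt
The match covers 17 bases, from 88 to 72 bases before the start. The spelling searched, in which N is any base, was matched in 119 of 16669 promoters of 11630 tested genes with an entry (0.714%). A second TXNIP promoter in the table held none of these matches, and a match is a description of the letters, not of binding.

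**Figure D1:**
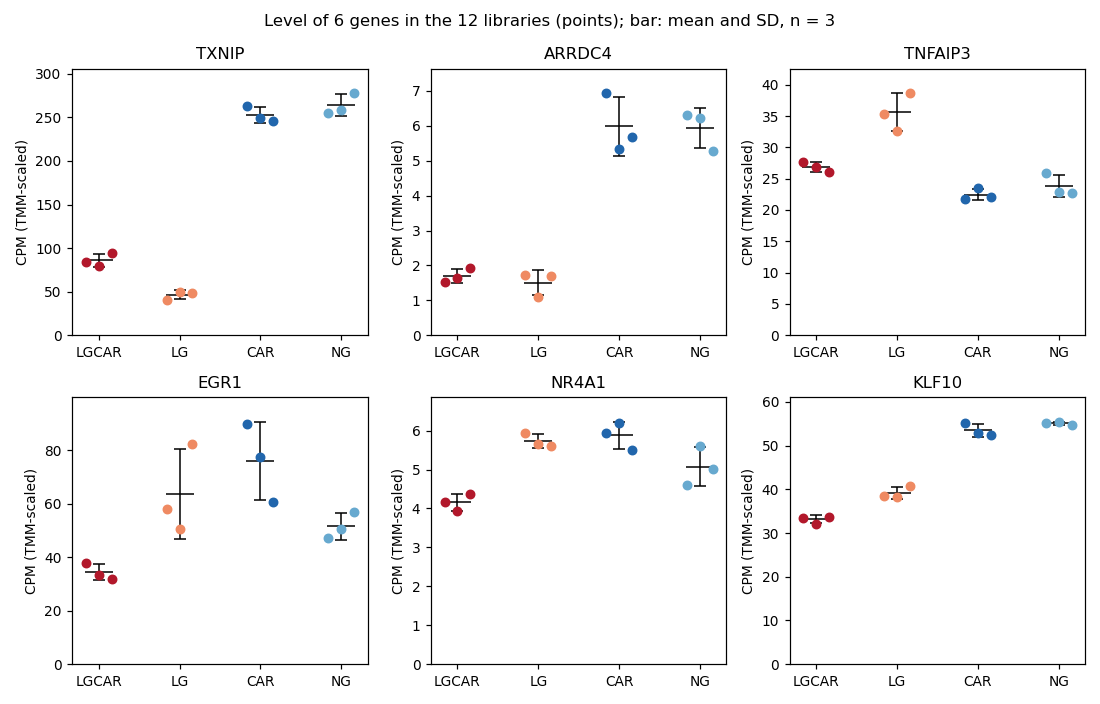
CPM (TMM-scaled, linear axis from 0) of TXNIP, ARRDC4, TNFAIP3, EGR1, NR4A1 and KLF10 in the 12 libraries, with the mean and SD of each group of 3. TXNIP lies at 79.9 to 94.6 CPM in LGCAR, above the 40.6 to 49.98 CPM of LG, while CAR and NG overlap; EGR1 is below LG in LGCAR and above NG in CAR, a difference that edgeR did not call.

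The other known targets of MondoA and ChREBP gave no second call. Of the 11 tested targets other than TXNIP, 7 had values above 0 and 4 below, with a median of 0.03, against 0.00194 over all genes. With TXNIP the median over 12 was 0.05, and it was 0.0018 without LG 2. ARRDC4, a TXNIP relative that also restrains glucose uptake, had 1.52, 1.63 and 1.91 CPM in LGCAR, against 1.72, 1.09 and 1.695 CPM in LG. It had 6.95, 5.33 and 5.67 CPM in CAR, against 6.31, 6.24 and 5.27 CPM in NG. Both pairs overlapped. Its interaction was 0.15 (SE 0.256, interval -0.39 to 0.70, edgeR adjusted p = 0.9999), with 25 to 41 counts in each library at 5 mM, and it was -0.04 without LG 2. The upper bound for ARRDC4 was below the lower bound for TXNIP, but the difference between the 2 genes was not tested. With lower glucose ARRDC4 fell both with cariporide (log2 change -1.83, edgeR adjusted p = 4.48e-05) and without it (-1.98, edgeR adjusted p = 2.58e-05).

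The ARRDC4 promoter is printed for comparison with that of TXNIP (RefSeq, GRCh38.p14, chr15:97960453-97960752, plus strand, 5′ to 3′). The capitals mark CACGTG, the E-box, which reads the same on both strands.
ARRDC4: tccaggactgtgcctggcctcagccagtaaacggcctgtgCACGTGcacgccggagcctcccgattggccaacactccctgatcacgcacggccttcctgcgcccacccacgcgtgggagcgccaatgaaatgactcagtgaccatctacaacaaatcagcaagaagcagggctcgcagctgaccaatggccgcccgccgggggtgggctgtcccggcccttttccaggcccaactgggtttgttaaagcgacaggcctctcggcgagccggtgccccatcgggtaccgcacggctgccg
The E-box lies 210 to 205 bases before the start and was found in 1516 of the 16669 promoters (9.09%). The longer element marked in TXNIP was not matched in this ARRDC4 window.

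KLF10, a zinc finger repressor induced by TGF-beta and by glucose, differed in sign from TXNIP. It had 33.5, 32.1 and 33.8 CPM in LGCAR, against 38.5, 38.2 and 40.7 CPM in LG, without overlap. In CAR it had 55.2, 52.9 and 52.4 CPM, against 55.2, 55.4 and 54.8 CPM in NG, and these overlapped. The interaction was -0.20 (SE 0.0715, interval -0.35 to -0.05, edgeR adjusted p = 0.9999). PFKFB4 and PFKFB3, kinases that make an activator of glycolysis, gave 0.16 (interval -0.05 to 0.37) and 0.08 (interval -0.08 to 0.24). For MLXIP, which encodes MondoA, the value was 0.03 (interval -0.26 to 0.31), and for its partner MLX -0.03 (interval -0.24 to 0.19). KLF10, PFKFB4, PFKFB3 and the further members named from lists were chosen after their values were seen.

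Lists of genes that move acid had medians close to that of all genes. The 14 bicarbonate transporters and carbonic anhydrases had a median of 0.04, 9 above 0 and 5 below, none at an unadjusted p under 0.05. The carbonic anhydrase CA9 gave -0.26 (interval -0.61 to 0.08), and the sodium-bicarbonate cotransporter SLC4A7 gave 0.16 (interval -0.05 to 0.38). The 10 genes of lactate transport and lactate dehydrogenase had a median of 0.03, and the monocarboxylate carrier SLC16A7 was the 1 member at an unadjusted p under 0.05 (0.38, interval 0.0086 to 0.75). SLC16A3, the main lactate exporter of glycolytic cells, gave 0.09 (interval -0.06 to 0.24). The 25 genes of glucose uptake and glycolysis had a median of 0.04, with 18 above 0, 7 below and none at an unadjusted p under 0.05. SLC2A1, the basal glucose transporter, gave 0.0078 (interval -0.13 to 0.15).

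EGR1 had a negative interaction that edgeR did not call. EGR1 is an immediate-early zinc finger factor, made within minutes of growth factor or stress signals through ERK and serum response factor. It had 37.8, 33.2 and 32.0 CPM in LGCAR, against 58.0, 50.4 and 82.4 CPM in LG. At 10 mM it had 89.9, 77.5 and 60.8 CPM in CAR, against 47.3, 50.4 and 56.996 CPM in NG. LGCAR was below LG and CAR was above NG in every library, so that the 2 changes pointed in opposite directions without overlap, as they did for 62 of 15104 genes (0.41%). The interaction was -1.45 (SE 0.277, interval -2.07 to -0.82, edgeR adjusted p = 0.911). DESeq2 called it (-1.45, DESeq2 adjusted p = 0.00231). LG 3 and CAR 1 held the highest EGR1 values of their groups, and without both the value was -1.08 (edgeR adjusted p = 0.355). With the ribosomal RNA share as a covariate it was -0.9997 (edgeR adjusted p = 0.917).

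The EGR1 promoter is shown for the CArG boxes through which serum response factor acts (RefSeq, GRCh38.p14, chr5:138465229-138465528, plus strand, 5′ to 3′). The capitals mark the CArG boxes, a motif that was added to the search after the EGR1 values were seen.
EGR1: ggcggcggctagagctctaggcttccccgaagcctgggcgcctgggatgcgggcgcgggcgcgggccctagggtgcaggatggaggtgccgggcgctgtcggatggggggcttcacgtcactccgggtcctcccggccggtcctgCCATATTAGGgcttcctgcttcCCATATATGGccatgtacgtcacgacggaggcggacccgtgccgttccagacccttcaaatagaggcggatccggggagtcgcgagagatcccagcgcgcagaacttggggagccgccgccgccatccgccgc
The 2 boxes lie 105 to 96 and 83 to 74 bases before the start. A CArG box was found in 185 of the 16669 promoters (1.11%), on either strand.

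NR4A1, an orphan nuclear receptor of the same immediate-early class, had 4.18, 3.93 and 4.36 CPM in LGCAR, against 5.94, 5.65 and 5.60 CPM in LG. It had 5.93, 6.20 and 5.51 CPM in CAR, against 4.60, 5.61 and 5.02 CPM in NG. The groups were apart at 5 mM and overlapped at 10 mM, as for 2962 genes (19.6%). Its interaction was -0.68 (SE 0.158, interval -1.01 to -0.34, edgeR adjusted p = 0.911), and 10.3% of its exon length lies opposite exons of another gene. Among the 23 tested genes of early growth response and ERK feedback, 14 values were below 0 and 9 above, with a median of -0.03, and 5 of the 23, all negative, had an unadjusted p under 0.05, as did 1.59% of all genes. Besides EGR1 and NR4A1 these were IER2 (-0.30), IER3 (-0.25) and the phosphatase gene DUSP10 (-0.20). IER3 was at -0.16 without CAR 1 and at -0.08 both with the ribosomal RNA share as a covariate and without LG 3 and CAR 1. DUSP10 was at -0.13 without LGCAR 3 and at -0.06 with the covariate, and IER2 was at -0.18 without LG 3 and CAR 1. The median of the list was -0.00034 without CAR 1. It was -0.07 with the covariate, with 17 values below 0, and -0.03 without LG 3 and CAR 1, with 15 below 0. For IER2, 30.8% of the exon length lies opposite exons of another gene, and for IER3 26.5%.

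Among the 12 AP-1 factors the median was -0.07, with 8 values below 0 and 4 above, and it was -0.01 without NG 3. With the ribosomal RNA share as a covariate the median was -0.14, with 9 values below 0. Without LG 3 and CAR 1 it was -0.04, with 8 below 0. JUNB was at 40.97, 41.7 and 39.0 CPM in LGCAR, against 46.98, 45.8 and 55.8 CPM in LG. In CAR it was at 47.2, 40.9 and 42.4 CPM, against 44.7, 39.7 and 37.1 CPM in NG. The groups were apart at 5 mM and overlapped at 10 mM, with an interaction of -0.39 (interval -0.64 to -0.15, edgeR adjusted p = 0.9999). For JUNB, 14.2% of the exon length lies opposite exons of another gene. FOS, the AP-1 subunit most closely tied to ERK signals, had a value of -0.32 (interval -0.66 to 0.0086). Without LG 3 and CAR 1, JUNB was at -0.24 and FOS at -0.18. With the ribosomal RNA share as a covariate JUNB was at -0.39 and FOS at -0.40. FOS fell with lower glucose both with cariporide (log2 change -1.17, edgeR adjusted p = 4.68e-05) and without it (-0.85, edgeR adjusted p = 0.000582).

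Cytokine genes and targets of NF-kB, the factor that drives inflammatory transcription, had the lowest median of the signalling lists. Of 28 tested members 25 (89.3%) had values below 0, against 49.3% of all genes, with a median of -0.21. None was called by edgeR or DESeq2, and 9 had an unadjusted p under 0.05, all negative, as did 1.59% of all genes. TNFAIP3, the ubiquitin-editing brake on NF-kB, had 27.6, 26.8 and 26.0 CPM in LGCAR, against 35.4, 32.7 and 38.7 CPM in LG. In CAR it had 21.8, 23.5 and 22.04 CPM, against 25.8, 22.8 and 22.8 CPM in NG. The groups were apart at 5 mM and overlapped at 10 mM, with an interaction of -0.32 (SE 0.102, edgeR adjusted p = 0.9999). At 5 mM its log2 change with cariporide was -0.41 (edgeR adjusted p = 0.144). Its interaction was -0.36 with the ribosomal RNA share as a covariate and -0.28 without LG 3 and CAR 1.

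The neutrophil chemokine CXCL2 had 103, 104 and 88.1 CPM in LGCAR, against 123, 122 and 156 CPM in LG. It had 92.8, 81.1 and 82.7 CPM in CAR, against 87.6, 87.5 and 87.2 CPM in NG. LGCAR was below LG throughout, and LG 3 was the highest library. The interaction of CXCL2 was -0.41 (interval -0.68 to -0.13, edgeR adjusted p = 0.9999). IL6 gave -0.26, CXCL8 -0.25, the granulocyte growth factor gene CSF3 -0.50 and the apoptosis inhibitor gene BIRC3 -0.18, each with an unadjusted edgeR p under 0.05. For IL6, 20.7% of the exon length lies opposite exons of other genes. The interactions of CXCL2, IL6, CXCL8, CSF3 and BIRC3 were closer to 0 in some other fits but not in all. Without LG 3, CXCL8 was at -0.15, without CAR 1 IL6 was at -0.17, and with the ribosomal RNA share as a covariate CXCL2 was at -0.18, IL6 at -0.07, CXCL8 at -0.09, CSF3 at -0.16 and BIRC3 at -0.11. Without LG 3 and CAR 1 together, CXCL2 was at -0.23, IL6 at -0.11, CXCL8 at -0.09 and CSF3 at -0.33, while BIRC3 stayed at -0.185. Farther from 0 were CXCL2 without LG 2 (-0.48) and CSF3 without LGCAR 1 (-0.69). The median of this list was -0.09 without LG 3 and CAR 1, -0.13 without LGCAR 3, and -0.07 with the ribosomal RNA share as a covariate. In each of these fits most members stayed below 0, with 21 of 28 without LG 3 and CAR 1 and with the covariate.

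Among stress genes, PPP1R15A, a phosphatase subunit that reverses the block of translation in the integrated stress response, had 225, 237 and 221 CPM in LGCAR, against 288, 276 and 324 CPM in LG. It had 274, 246 and 261 CPM in CAR, against 275, 263 and 279 CPM in NG. LGCAR was below LG in all libraries, and CAR overlapped NG. Its interaction was -0.31 (SE 0.085, edgeR adjusted p = 0.9999), and its change at 5 mM was -0.38 (edgeR adjusted p = 0.0722), the second smallest adjusted p of that comparison. DDIT3, a pro-death factor of the same response, gave -0.32, but 31.6% of its exon length lies opposite exons of other genes. With the covariate PPP1R15A was at -0.20 and DDIT3 at -0.17, and without LG 3 and CAR 1 DDIT3 was at -0.20. The list of 35 ATF4 targets had 20 values below 0 and 15 above and a median of -0.0071, and none was called.

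The 20 p53 targets had a median of -0.09, with 14 values below 0 and 6 above. Of the 20, 4 had an unadjusted p under 0.05, all negative, as did 1.59% of all genes. Of the 4, GADD45B gave -0.43 and GADD45A -0.32, both growth arrest genes that also respond to stress kinases. GADD45A was at -0.18 without LG 3, at -0.15 with the covariate and at -0.14 without LG 3 and CAR 1. GADD45B was at -0.21 with the covariate and at -0.25 without LG 3 and CAR 1. MYC, a growth-promoting factor whose partner is MAX, gave -0.22 (interval -0.40 to -0.04, edgeR adjusted p = 0.9999), and -0.10 with the covariate. PLAU, the urokinase that starts plasmin activation in matrix breakdown, had 397, 394 and 405 CPM in LGCAR, against 417, 423 and 465 CPM in LG. It had 414, 401 and 417 CPM in CAR, against 385, 397 and 398 CPM in NG, and 31.1% of its exon length lies opposite exons of another gene. PLAU, EGR1 and the histone gene H2BC21 were the 3 list members, of 854 tested, apart in opposite directions at the 2 glucose levels. Over all tested genes this held for 62 of 15104 (0.41%). The interaction of PLAU was -0.19 (interval -0.33 to -0.04, edgeR adjusted p = 0.9999).

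**Figure D2:**
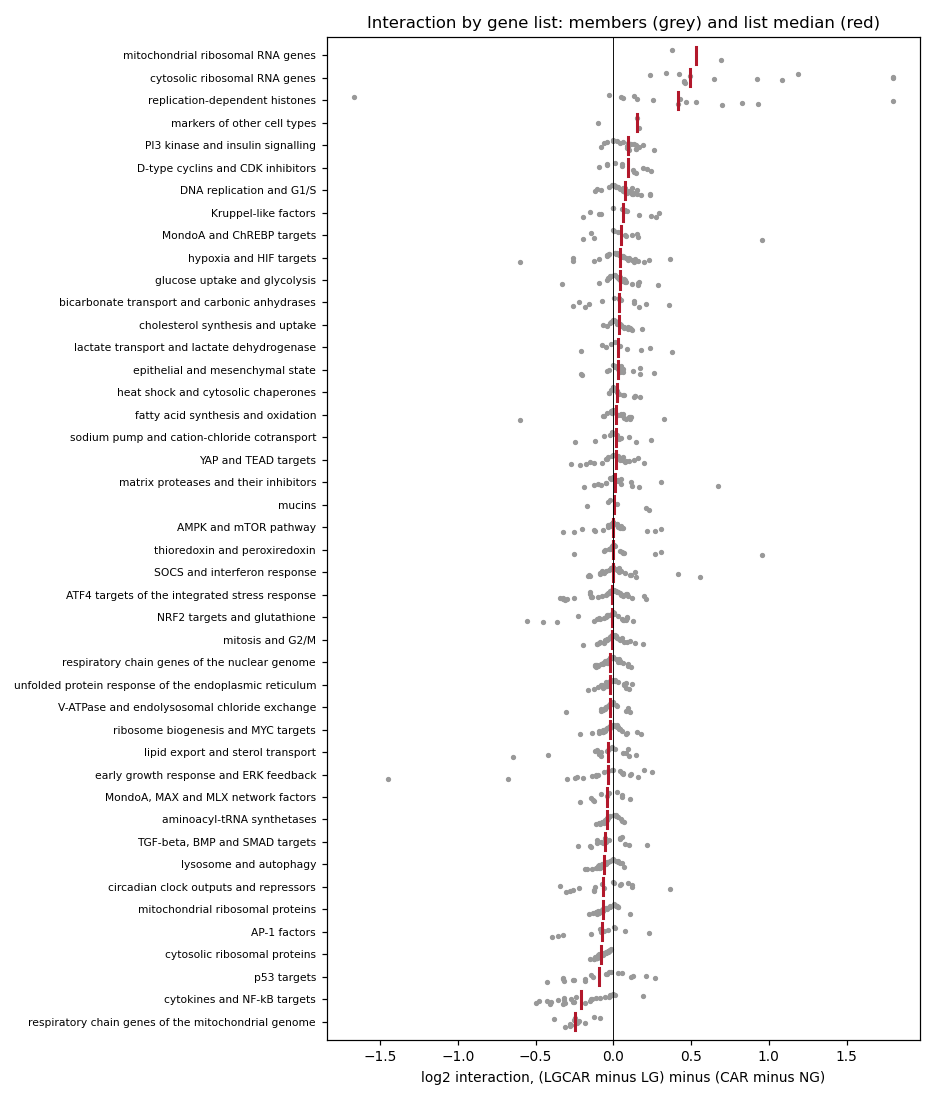
Log2 interaction (horizontal axis) of the tested members (grey points) of 42 gene lists and 2 groups of ribosomal RNA genes, with each median as a red bar. The 3 members beyond 1.8 either way are drawn at that limit. Medians lie close to 0 for most lists, below it for the cytokine and mitochondrial-genome lists and above it for histones and ribosomal RNA.

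Ribosomal RNA, histone and mitochondrially encoded genes had the list medians farthest from 0. Each of these medians was closer to 0 with the ribosomal RNA share of the libraries as a covariate. For the cytosolic ribosomal RNA genes no other outcome was likely, as the share is computed from their own counts. The part of the share in the result was not tested. RNR1, the small ribosomal RNA of mitochondria (chromosome MT, 648 to 1601), had the second smallest p of the interaction. It had 9213, 10681 and 10579.9 CPM in LGCAR, against 8507, 8093 and 7775 CPM in LG. In CAR it had 6522, 7784 and 7325 CPM, against 10302.5, 9119 and 8483 CPM in NG. LGCAR was above LG and CAR below NG in all libraries, and 62 of 15104 genes (0.41%) were likewise apart in opposite directions. The interaction of RNR1 was 0.69 (SE 0.117, edgeR adjusted p = 0.152), and DESeq2 called it (DESeq2 adjusted p = 1.31e-05). It was 0.40 with the cytosolic ribosomal RNA share as a covariate (edgeR adjusted p = 0.917).

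The 13 tested cytosolic ribosomal RNA genes were all above 0, with a median of 0.49. Of these, 5 had an unadjusted p under 0.05. Of all tested genes, 1.54% had such a p together with a positive value. They are near-identical copies whose reads the counting could divide in more ways than 1, so single values are uncertain. Of 15 tested replication-dependent histone genes, 13 were above 0, with a median of 0.41. At an unadjusted p under 0.05 there were 4, all positive, against 1.54% of all genes. H2BC21 had 7.42, 6.46 and 7.23 CPM in LGCAR, against 5.56, 6.05 and 5.79 CPM in LG. It had 4.55, 5.38 and 5.34 CPM in CAR, against 6.35, 6.58 and 7.40 CPM in NG, and its interaction was 0.70 (SE 0.155, edgeR adjusted p = 0.873). The histone median was 0.08 with the ribosomal RNA share as a covariate, 0.15 for genes averaging 5 CPM or more, and 0.23 without LG 3 and CAR 1. It was 0.25 without LG 3 alone and 0.25 without LGCAR 3. With the covariate 12 of the 15 histone genes stayed above 0, and H2BC21 was at 0.75.

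The 13 respiratory chain genes of the mitochondrial genome were all below 0, with a median of -0.25. Of these, 5 had an unadjusted p under 0.05. Of all tested genes, 1.59% had such a p together with a negative value. ND4, a subunit of complex I, gave -0.31 and ATP6, a subunit of ATP synthase, gave -0.28. With the ribosomal RNA share as a covariate the median was 0.0062, and 9 of the 13 were above 0, with ND4 at -0.10 and ATP6 at -0.03. Without LG 3 and CAR 1 it was -0.12, with 12 of 13 below 0, and without LG 3 alone -0.16. Mitochondrially encoded messenger RNA took up 5.19% ± 0.283 of all counts in LGCAR, 5.997% ± 0.589 in LG, 6.26% ± 0.535 in CAR and 5.87% ± 0.502 in NG (SD, n = 3 each). The 35 cytosolic ribosomal protein genes were also all below 0, by a median of -0.08, but 34 were above 0 with the covariate (median 0.10) and 33 without LG 3 and CAR 1 (median 0.05), and 17 without CAR 1 alone. None of the 35 had an unadjusted edgeR p under 0.05. The 34 nuclear genes of the respiratory chain had a median of -0.02.

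**Figure D3:**
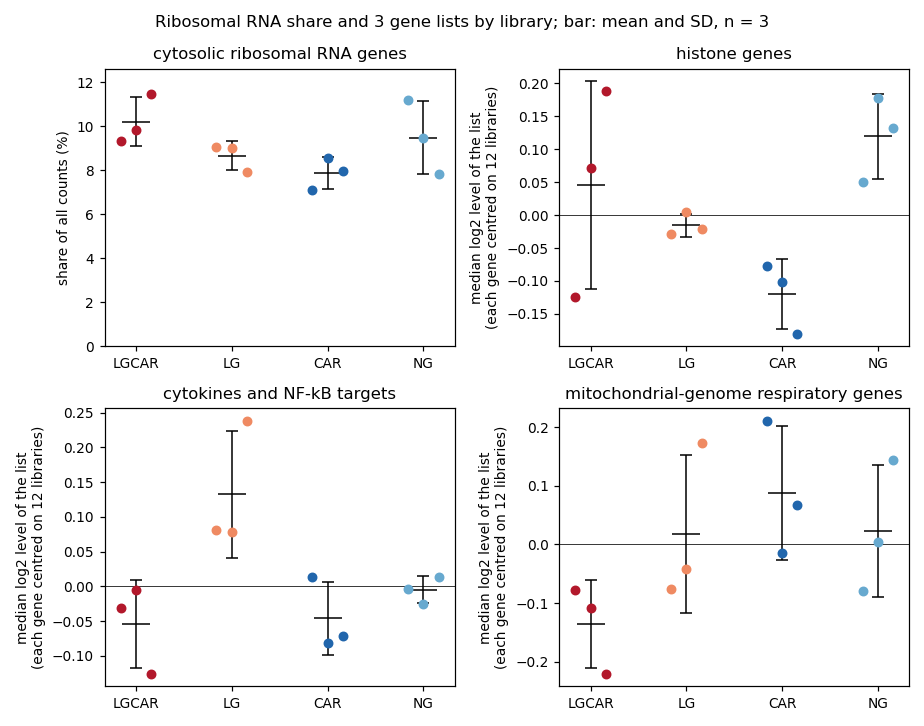
Share of all counts held by cytosolic ribosomal RNA genes (percent) and the median log2 level of 3 gene lists in each library, each gene centred on its mean over the 12 libraries; bars give the mean and SD of 3 libraries. The ribosomal RNA share averages 10.2% in LGCAR, 8.65% in LG, 7.87% in CAR and 9.48% in NG, and LG 3 is the highest library for cytokines and NF-kB targets.

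Most of the remaining lists had medians near that of all genes. The 3 tested markers of other cell types had a median of 0.15, which was -0.0068 without NG 2. In all, 38 of the 42 lists had a median between -0.1 and 0.1, and at this size of value the sign of several depended on the scaling. The list of PI3 kinase and insulin signalling had 18 of 22 values above 0 and a median of 0.09, but 4 of 22 (median -0.10) with the ribosomal RNA share as a covariate and 6 of 22 (median -0.05) without LG 3 and CAR 1, and its median was 0.0089 without LG 3 alone. Among 35 genes of DNA replication and the entry into S phase, 30 were above 0 with a median of 0.07, but it was 20 of 35 when library totals were the only scaling (median 0.01), and the median was 0.04 without LG 1. The replication factor MCM10 was the 1 member at an unadjusted p under 0.05. Of 26 cholesterol genes 21 were above 0, with a median of 0.04 and none at an unadjusted p under 0.05, but 9 of 26 with library totals as the only scaling (median -0.02), and a median of 0.01 without LG 1. The 33 genes of lysosome and autophagy had 27 values below 0 and a median of -0.06, but 12 below 0 with the covariate (median 0.05) and 13 without LG 3 and CAR 1 (median 0.04), and its median was -0.01 without CAR 1 alone. Library totals as the only scaling moved the median of all genes to -0.06, and with it turned the small positive medians of glucose uptake and glycolysis (-0.02), bicarbonate transport (-0.02), lactate transport (-0.03), hypoxia (-0.02) and MondoA targets (-0.01). Genes of hypoxia (median 0.05 over 30), of the unfolded protein response (-0.02 over 23), of mitosis (-0.01 over 30) and of the epithelial and mesenchymal state (0.03 over 17) had no called member either.

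Across genes the cariporide changes at the 2 glucose levels, which share no library, were loosely related. They had the same sign for 66.3% of all tested genes and for 70.9% of the 10971 genes averaging 5 CPM or more. Pearson's r across genes was -0.017 over all tested genes and 0.28 over the 10971, and genes are not independent replicates. At 5 mM, 1 gene was called (0.00662%) and 1801 (11.9%) had an unadjusted edgeR p under 0.05. At 10 mM none was called by edgeR (0%) or limma-voom, 684 (4.53%) had an unadjusted edgeR p under 0.05, and DESeq2 called 2. Without LG 3 and CAR 1, however, 1082 genes were called at 10 mM, while the interaction then had none. That fit had 7482 genes with an interaction above 0 and 7800 below. In it, 1043 genes had an unadjusted edgeR p under 0.05 in the interaction, against 473 with all libraries. At 10 mM the number was 3561, against 684. The size of the change, as its median absolute log2 value at 5 CPM or more, was 0.08 at 5 mM and 0.06 at 10 mM.

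**Figure D4:**
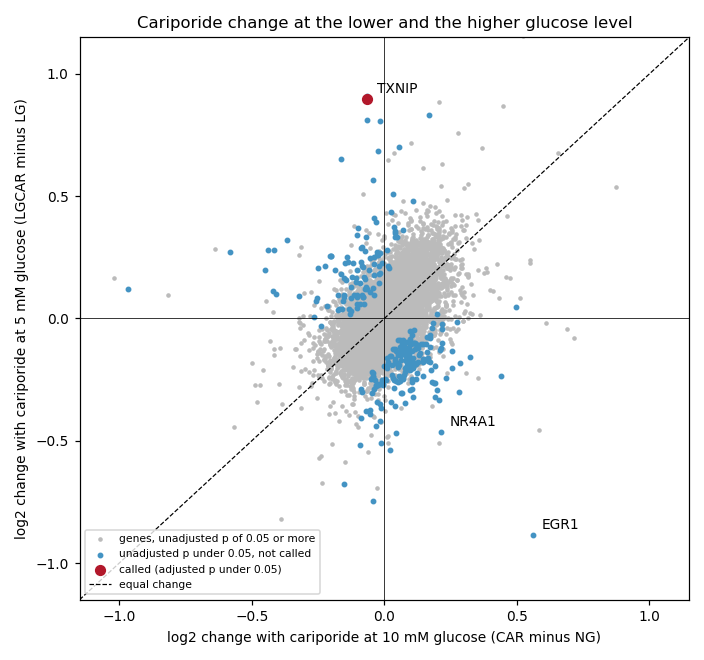
Log2 change with cariporide at 5 mM glucose (LGCAR minus LG, vertical) against that at 10 mM (CAR minus NG, horizontal) for the 10971 genes averaging 5 CPM or more, 9 of which lie outside the axes. TXNIP (red, called) lies at 0.90 on the vertical and -0.06 on the horizontal axis, far from the dashed line of equal change, and EGR1 and NR4A1 (blue, not called) lie below that line.

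The 2 comparisons of lower with higher glucose share no library. The response to lower glucose was called for 249 genes with cariporide (LGCAR against CAR, 1.65%), 147 of them higher and 102 lower. Without cariporide it was called for 261 (LG against NG, 1.73%), 151 higher and 110 lower. With the ribosomal RNA share as a covariate the counts were 18 with cariporide and 586 without. Over the fits that left out 1 library they ran from 51 to 448 with cariporide and from 83 to 471 without. With library totals as the only scaling the division was 94 higher and 257 lower with cariporide, and 178 higher and 78 lower without. It was 110 higher and 138 lower with cariporide under upper-quartile scaling. Of the 261 genes called without cariporide, 256 (98.1%) had the same sign with it, and of the 249 called with cariporide, 241 (96.8%) had the same sign without. The share with the same sign over all tested genes is not given here for comparison. The sets shared 108 genes, 43.4% of the 249 and 41.4% of the 261. For the 261, the median size was 0.24 with cariporide and 0.34 without, and for the 249 it was 0.35 with cariporide and 0.27 without. Each set was larger on the side by which it was chosen. Of the 108 genes called in both, TXNIP was the 1 called in the interaction, and next by p came KLF10.

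**Figure D5:**
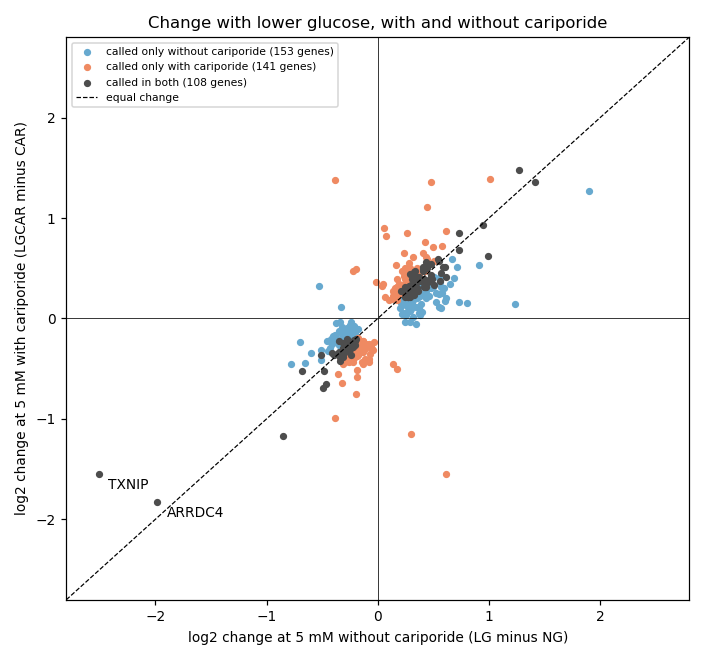
Log2 change at 5 mM against 10 mM glucose with cariporide (LGCAR minus CAR, vertical) and without it (LG minus NG, horizontal) for the 402 genes called in either comparison. Most genes lie near the dashed line of equal change; TXNIP lies above it, at -1.55 with cariporide and -2.51 without, and ARRDC4 lies close to it at -1.83 and -1.98.

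The remaining genes that the naming rule took were expressed at low levels. TMEFF1, a transmembrane protein with follistatin-like domains, had 1.08, 0.674 and 0.638 CPM in LGCAR, against 2.09, 1.96 and 2.59 CPM in LG. In CAR it had 2.04, 2.78 and 2.32 CPM, against 0.759, 2.27 and 1.32 CPM in NG. LGCAR was below LG throughout, and CAR overlapped NG. Its interaction was -2.16 (SE 0.434, edgeR adjusted p = 0.676), DESeq2 called it (DESeq2 adjusted p = 0.0189), and 75.9% of its exon length is shared with the read-through gene MSANTD3-TMEFF1 on the same strand. RP1L1, a protein of retinal photoreceptors, had 1.38, 1.35 and 1.38 CPM in LGCAR, against 0.795, 0.652 and 0.753 CPM in LG. It had 0.392, 0.65 and 0.538 CPM in CAR, against 1.04, 0.725 and 1.11 CPM in NG. LGCAR was above LG and CAR below NG in all libraries, and 62 of 15104 genes (0.41%) were likewise apart in opposite directions. The interaction of RP1L1 was 1.76 (SE 0.368, edgeR adjusted p = 0.705).

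H2AC19, which DESeq2 called and edgeR did not, is a near-identical copy of H2AC18. H2AC19 had 192 counts in LG 2, 208 in CAR 2 and 174 in CAR 3, and 0 in the other 9 libraries. In those 3 libraries H2AC18 had 0 counts, and in the other 9 it had 143 to 219. The values of both genes are therefore uncertain.

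The precision of the interaction depended on the level. Of all tested genes 83.9% had a 95% interval that lay within 2-fold either way, and 71.0% one within 1.5-fold. Among the 10971 genes averaging 5 CPM or more these shares were 99.3% and 94.4%. Among the 1649 genes under 1 CPM they were 4.002% and 0.0606%, so that for most of these the interval did not exclude a 2-fold interaction at this depth. The median SE was 0.125 over all tested genes and 0.103 at 5 CPM or more.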

How the data were processed

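RNA of the 12 libraries was extracted with Trizol and made into directional libraries with a NEBNext Ultra II kit, per the labels' protocols. The deposited values are whole-number counts per gene symbol, 1 table for each library, made by the authors. The submitters' processing notes name STAR, Salmon, fastp and GATK, and the build GRCh38. Which tool made the counts, its version and its strand setting are not stated there or in the labels.

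CPM with TMM factors and log2 values were computed here from the counts. Genes that passed filterByExpr with the 4 groups were fitted in R 4.3.3 with edgeR 4.0.16 (robust quasi-likelihood, 1 mean for each group). Benjamini-Hochberg adjustment ran over all 15104 genes, and an adjusted p under 0.05 was called. The test was tested on simulated data. Library totals ran from 18069004 to 24837409 counts, and at low levels counting error limits precision. Intervals are 95% intervals from the quasi-likelihood SE.

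The members, the 42 gene lists (910 symbols, 854 tested) and the tests were chosen with earlier results of these data known. The lists were described by counts and medians, without a set test. The naming rule took TXNIP, ARRDC4, 1 further gene that is not reported here, the called genes and, where fewer than 3 genes were called in a direction, the 3 with the smallest p in it. Other genes were chosen after their values were seen, mostly as the members of a list with the smallest p. Alternatives were other scalings, filters, DESeq2 1.42.0, limma-voom (limma 3.58.1), a replicate block, the ribosomal RNA share as a covariate and libraries left out. Leaving out LG 3 with CAR 1, and leaving out mitochondrial with cytosolic ribosomal RNA genes, were chosen after seeing the data. Replicate numbers showed no clear pairing of the libraries. Coordinates and promoters are those of RefSeq on GRCh38.p14, and exon overlaps come from GENCODE 29. The RefSeq genes hold 14940 of the 15104 symbols (98.9%), and the promoters hold 11630 of them. Plots come from matplotlib 3.10.9 under Python 3.11.15.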

Additional observations from a re-analysis of the deposited data

Results flagged for a closer look

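The change of TXNIP with cariporide differed between the 2 glucose levels by a test of the difference itself. The difference was 0.959 on the log2 scale (edgeR adjusted p = 0.00138), with every LGCAR library above every LG library and with CAR and NG overlapping. Groups of 3 libraries were not tested for outliers.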

How the results depend on the processing

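TXNIP kept its direction and its call under other scalings and filters, DESeq2, limma-voom, non-robust estimation and without ribosomal RNA genes and without NG 1 and LGCAR 3, from 0.90 to 0.96. Its call ended with the ribosomal RNA share as a covariate (1.002, edgeR adjusted p = 0.0595) and without LG 3 and CAR 1 (1.02, edgeR adjusted p = 0.156). The cause was not tested. Leaving out 1 library gave 0.86 to 1.01 for the interaction of TXNIP, and 0.80 to 0.95 for its change at 5 mM. Over those 12 fits the count of called genes was 1 to 3 in the interaction (2 without NG 1, with AHRR, and 3 without NG 2, with MIRLET7BHG and TMEFF1). It was 1 to 3 for cariporide at 5 mM (2 without CAR 1 or LGCAR 3, 3 without LG 2), and 0 to 2 at 10 mM (2 without NG 1, 1 without NG 2 or NG 3). AHRR and MIRLET7BHG were named after their values were seen. AHRR had 0 counts in the 3 CAR libraries and in NG 1. The interaction count was 2 with no filter on low counts, 5 with DESeq2, 0 with the covariate, 2 without NG 1 and LGCAR 3, and 0 without LG 3 and CAR 1. At 5 mM the count was 15 with no filter, 20 with DESeq2, 2 without NG 1 and LGCAR 3, 5 without LG 3 and CAR 1, and 2 at an adjusted p under 0.10. At 10 mM it was 2 with DESeq2, 2 without NG 1 and LGCAR 3, and 1082 without LG 3 and CAR 1.

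The count for lower glucose with cariporide was 51 to 448 over the fits that left out 1 library. It was 127 without NG 2, 150 without LG 2, 448 without LG 3, 69 without CAR 3, and 54, 51 and 67 without LGCAR 1, 2 and 3. It was 391 with no filter, 419 with DESeq2, 18 with the covariate, 55 without NG 1 and LGCAR 3, 514 without LG 3 and CAR 1, and 595 at an adjusted p under 0.10. Without cariporide the count was 83 to 471. It was 167, 98 and 83 without NG 1, 2 and 3, 88 and 99 without LG 1 and LG 2, 173 without LGCAR 1 and 471 without CAR 1. It was 586 with the covariate, 87 without NG 1 and LGCAR 3, 1765 without LG 3 and CAR 1, and 488 at an adjusted p under 0.10. ARRDC4 ran from -0.043, without LG 2, to 0.28 over the fits that left out 1 library. DESeq2 also called EGR1, RNR1, TMEFF1 and H2AC19.

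Replicate numbers did not pair the libraries: deviations of same-numbered libraries correlated between -0.40 and 0.41, with 6 of 18 over 0.1, and 5 of 12 libraries correlated best with their own number. With the replicate number as a block TXNIP was 0.96 (edgeR adjusted p = 0.00704) and the interaction count was 1, while the counts for lower glucose were 135 with cariporide and 147 without. Depth limited genes under 1 CPM most.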
